A study of Mus musculus with 21 samples.

Results

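Ccna1, Tcp11, Ldhc, Pgk2, Adam2 and Crem are genes that the mouse testis is known to use mainly in later spermatocytes and in spermatids. They were chosen by name from the gene column of the deposited table, 6 of its 32643 genes, and their levels are described here in juvenile testes. Ccna1 and Tcp11 were chosen from results on these same animals, so their genotype differences are given as descriptions with no test. Ldhc, Pgk2, Adam2 and Crem were listed as later germ cell genes and can be tested, although their listing too was made with earlier results of these data known. A gene was tested when it had enough reads (a minimum count of 10 and a minimum total of 15 in edgeR's filter), and 20254 genes passed. Of the 6 genes, 5 passed and Pgk2 did not.

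RNA was sequenced from whole testes of 21 mice at postnatal day 10. The 12 wild-type animals (WT) were 4 given vehicle, 4 given bisphenol A (BPA, an estrogen-like building block of plastics) and 4 given stigmasterol (a plant sterol). The 9 FXR knockout animals (KO, FXRalpha-/-, lacking the bile acid receptor encoded by Nr1h4) were 3 of each treatment. All 6 groups carry the same label for strain, a mix in equal parts of 129sv and C57Bl6. Doses, litters and the deleted part of the gene are not stated in the labels. The tests set group differences against the spread between animals and take the animals as independent. Whether any were littermates is not known, so p-values can be too small. Libraries held 35459523 to 61498855 counted reads, and 3 reads, taken as the floor of detection, correspond to 0.0484 to 0.0884 counts-per-million (CPM). Cdh16, which encodes an epithelial cadherin made in the epididymis, was at 10 CPM or above in 9 libraries (WT vehicle T81, WT BPA T60 and T75, KO vehicle T1 and T110, KO BPA T83 and T117, KO stigmasterol T10 and T93). Results that involve genotype are therefore also given without those libraries, which leaves 9 WT and 3 KO animals.

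Male germ cells pass from spermatogonia into a long meiotic prophase, and then through the meiotic divisions to round and elongating spermatids. In the mouse the germ cells advance as a first wave after birth, so that a testis at this age holds Sertoli cells, spermatogonia and spermatocytes in early meiotic prophase, with later cells not expected. Several genes of later stages are testis versions of enzymes that other tissues make from a second gene: Ldhc encodes the germ cell form of lactate dehydrogenase, and Pgk2 the retrogene form of phosphoglycerate kinase. Ccna1 encodes the germ cell cyclin A1, needed by spermatocytes to leave prophase. Tcp11 encodes a testis protein of sperm. Adam2 encodes fertilin beta, a sperm surface protein. Crem encodes a cAMP-responsive transcription factor whose activator form drives spermatid genes, while other products of the same gene are made in many cell types.

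Several defining genes of spermatids were at or near the floor, and others were low but counted in every library. Prm2, a protamine that packs sperm DNA, had 0 to 4 reads in each of the 21 libraries. Hist1h1t, the testis linker histone of pachytene spermatocytes, had 0 to 9 reads, and Prm1 had 1 to 13. Tnp1, a transition protein of spermatids, had 7 to 33 reads, or 0.152 to 0.752 CPM, above the floor in all 21 libraries. The acrosome genes Acrv1 and Acr lay between 0.134 and 0.499 CPM and between 0.0884 and 0.522 CPM. Summed over 32 spermatid genes, WT libraries had 12 to 18.2 CPM and KO libraries 16.8 to 20.8 CPM. Genes of pachytene spermatocytes were not all as low as Hist1h1t. Hspa2 averaged 49.3 CPM over the 21 libraries, and Piwil1 averaged 6.06. For a list of 32 pachytene genes, the lowest sum among WT animals was 288 CPM and the highest 547. Among KO animals these sums reached from 292 up to 494 CPM. The 29 early meiotic prophase genes found in the table gave sums between 1024 and 4304 CPM in the WT group and between 1386 and 3785 CPM in the KO group. In whole testes, fewer cells of a type and less RNA per cell cannot be told apart.

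The 6 genes fell into 3 ranges of level, compared between genes as the authors' normalized signal per kb of gene length. Crem was highest, with a mean of 580 per kb over the 21 libraries and a range of 491 to 740. Tcp11 averaged 98.4 per kb, Ldhc 36.9 and Ccna1 36.1, with ranges that overlapped between Ldhc and Ccna1. Adam2 and Pgk2 averaged 2.29 and 1.98 per kb, and each included libraries with 0 reads. The versions of these genes that other cells use were far higher on the same scale. Ccna2, the mitotic cyclin A, averaged 3324 per kb. Ldha and Ldhb, the somatic lactate dehydrogenase subunits, averaged 5269 and 27280 per kb, and Pgk1, the somatic phosphoglycerate kinase, 781. Creb1, the widely expressed relative of Crem, averaged 3465 per kb, and Fhl5, the testis coactivator of CREM protein also called ACT, 8.76. The level of Crem was far above that of the defining spermatid genes, and its count covers all products of the gene together.

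**Figure D1:**
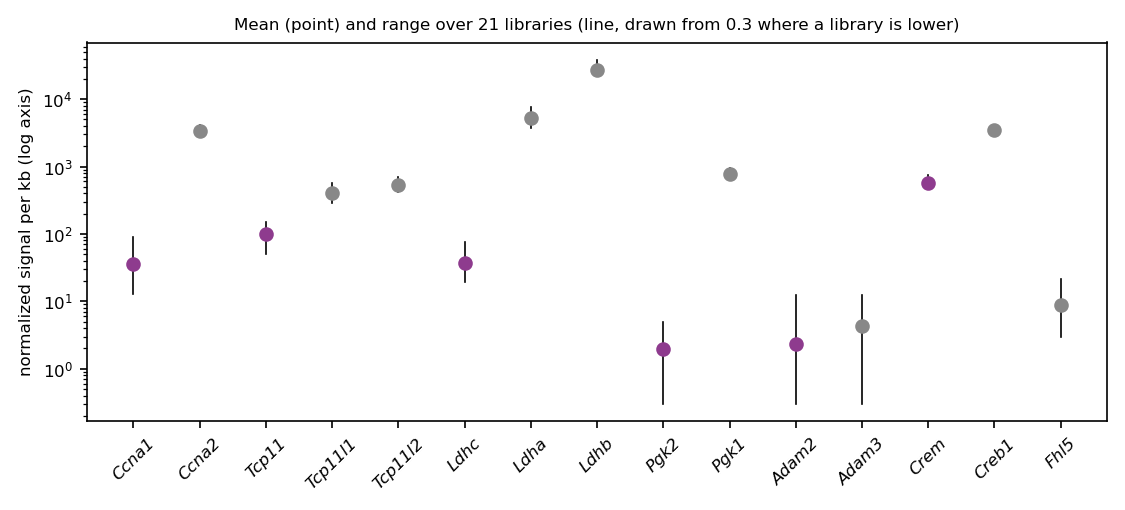
Mean authors' normalized signal per kb (points; purple for the 6 genes described, grey for relatives and partners) and lowest to highest library (lines, drawn from 0.3 where a library is lower) over 21 libraries, on a log axis. Ccna1, Ldhc and Pgk2 lie below Ccna2, Ldha, Ldhb and Pgk1, and Crem, at 580, is the highest of the 6.

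Ccna1 (ENSMUSG00000027793, chromosome 3, 55045469 to 55055055, mm10, minus strand) was the gene whose level separated the genotypes. The WT vehicle group had 0.702 CPM in T66, 0.576 in T71, 1.01 in T79 and 0.586 in T81. The WT BPA group had 0.86 CPM in T60, 0.787 in T75, 0.825 in T61 and 0.46 in T74, and the WT stigmasterol group 0.871 in T78, 0.779 in T98, 0.673 in T118 and 0.736 in T119. The 12 WT libraries thus stayed within a narrow band, from 21 to 45 reads each.

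In the KO vehicle group Ccna1 was at 3.29 CPM in T1, 1.71 in T90 and 1.7 in T110. The KO BPA group had 2.08 CPM in T25, 1.43 in T83 and 1.21 in T117, and the KO stigmasterol group 2.47 in T10, 2.89 in T15 and 1.68 in T93. Every KO library lay above every WT library, in all 3 treatments. The margin was smallest between KO BPA animal T117, with 49 reads and a 95% Wilson interval of 0.912 to 1.59 CPM for counting error only, and WT vehicle animal T79. Means were 0.739 ± 0.15 CPM (SD, n = 12) in WT and 2.05 ± 0.699 CPM (SD, n = 9) in KO testes. The order of the groups ran from KO stigmasterol (2.35 CPM) through KO vehicle (2.23) and KO BPA (1.57) to WT stigmasterol (0.765), WT BPA (0.733) and WT vehicle (0.717), and the only neighbours whose animals did not overlap were KO BPA and WT stigmasterol.

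On the log2 scale of the edgeR fit, Ccna1 was higher in KO by 1.63 ± 0.288 (SE) in vehicle, 1.1 ± 0.29 in BPA and 1.61 ± 0.286 in stigmasterol, and by 1.45 ± 0.166, a fold of 2.72, averaged over treatments. The vehicle difference was 1.23 without KO vehicle animal T1. Without the Cdh16 libraries, which leaves 1 animal in each KO group, the difference was 1.15 in vehicle, 1.68 in BPA and 1.91 in stigmasterol. The BPA difference, the smallest of the 3 in the full fit, was then above that in vehicle. Averaged over treatments the difference was then 1.58 ± 0.208, and the KO animals left, T90, T25 and T15, had 1.71, 2.08 and 2.89 CPM. Of all tested genes, 0.434% had every KO animal above every WT animal, and 8.25%, 5.12% and 8.44% did so within vehicle, BPA and stigmasterol. These shares stand beside the Ccna1 values for scale only, since Ccna1 was chosen from this contrast. An antisense gene, 4931419H13Rik, shares 185 of the 1835 exonic bases annotated for Ccna1, and without strand in the library its reads cannot be told apart from those of Ccna1.

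Tcp11 (ENSMUSG00000062859, chromosome 17, 28066747 to 28080639, minus strand) was higher in KO than in WT testes in the vehicle groups. Under vehicle the WT animals had 2.96 CPM (T66), 2.21 (T71), 2.86 (T79) and 1.46 (T81) and the KO animals 4.28 (T1), 4.43 (T90) and 3.17 (T110), with no overlap. Of all tested genes, 8.25% likewise had every KO vehicle animal above every WT vehicle animal, and Tcp11 was chosen from results. Under BPA the WT animals had 2.83 CPM (T60), 2.19 (T75), 3.21 (T61) and 2.81 (T74) and the KO animals 2.81 (T25), 2.57 (T83) and 2.36 (T117), so that the genotypes overlapped. Under stigmasterol the WT animals had 2.37 CPM (T78), 2.94 (T98), 2.4 (T118) and 1.86 (T119) and the KO animals 2.59 (T10), 3.95 (T15) and 3.8 (T93), with T10 inside the WT range.

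The fitted log2 differences of Tcp11, KO against WT, were 0.74 ± 0.223 (SE) in vehicle, -0.1 ± 0.226 in BPA and 0.52 ± 0.223 in stigmasterol, and 0.39 ± 0.129 averaged over treatments. Between BPA and vehicle within KO animals the difference was -0.62 ± 0.24, and the difference of the BPA response between genotypes was -0.84 ± 0.319. Without the Cdh16 libraries the genotype difference was 0.71 in vehicle, -0.11 in BPA, 0.71 in stigmasterol and 0.44 averaged. In the order of group means KO vehicle (3.96 CPM) came first and WT vehicle (2.37 CPM) last, and every pair of neighbours in that order overlapped. AC132460.1, a transcript on the same strand, shares 447 of the 3841 exonic bases annotated for Tcp11.

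**Figure D2:**
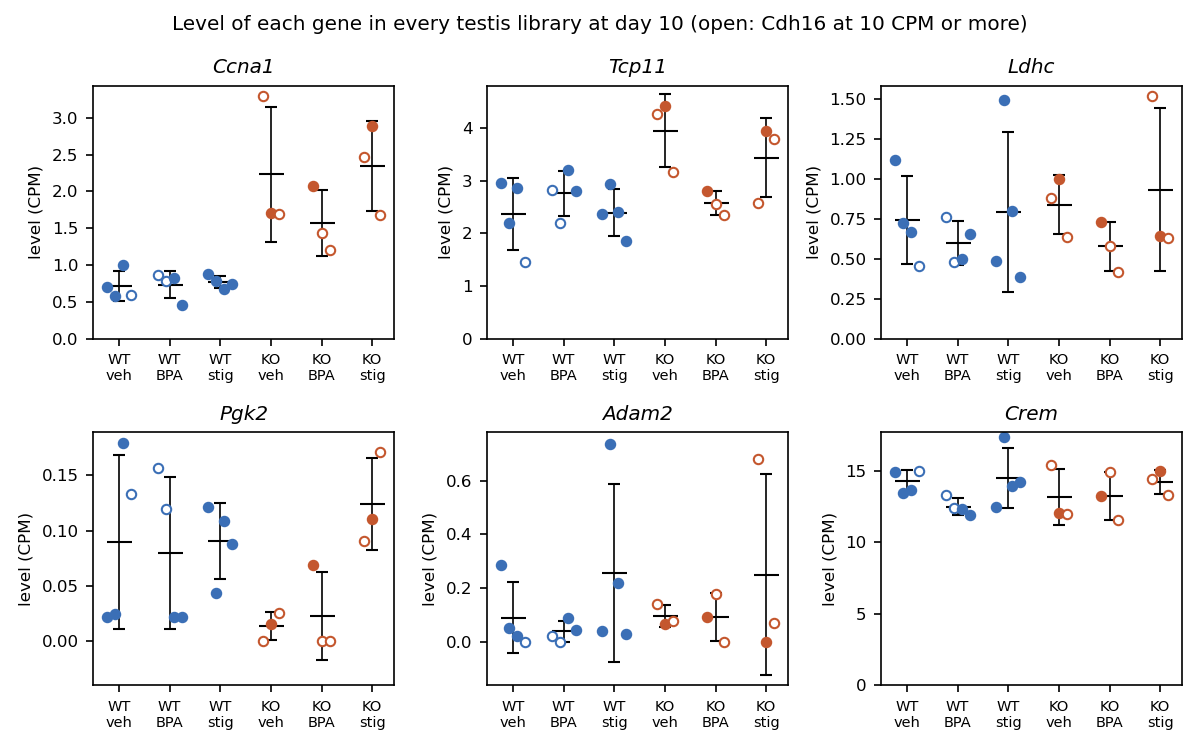
Level in CPM (vertical axis, linear, a separate scale for each gene) of the 6 genes in every library, by genotype and treatment group (blue WT, 4 animals a group; orange KO, 3 animals a group; bars mark the mean and SD; open points are libraries with Cdh16 at 10 CPM or more). Ccna1 in the 9 KO libraries, 1.21 to 3.29 CPM, lies above the 12 WT libraries, 0.46 to 1.01 CPM, while Crem stays between 11.6 and 17.4 CPM in all groups.

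Ldhc (ENSMUSG00000030851, chromosome 7, 46861203 to 46878142, plus strand) varied from animal to animal about as widely in each genotype. It lay between 0.383 and 1.49 CPM in WT libraries (median 0.664; 13 to 69 reads) and between 0.418 and 1.52 CPM in KO libraries (median 0.64; 17 to 67 reads). The highest libraries were KO stigmasterol T10 (1.52 CPM), WT stigmasterol T98 (1.49) and WT vehicle T66 (1.12), and the lowest were WT stigmasterol T119 (0.383) and KO BPA T117 (0.418). The 3 highest animals therefore came from both genotypes, and the stigmasterol group of WT held both the highest and the lowest WT animal. The log2 difference, KO against WT averaged over treatments, was 0.11 ± 0.243 (SE; edgeR adjusted p = 0.806).

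Adam2 (ENSMUSG00000022039, chromosome 14, 66027329 to 66077733, minus strand) had 0 to 34 reads per library. It stood out in WT stigmasterol animal T98 (34 reads, 0.736 CPM) and KO stigmasterol animal T10 (30 reads, 0.681 CPM), followed by WT vehicle T66 (0.285), WT stigmasterol T118 (0.218) and KO BPA T83 (0.179). No read was counted in WT vehicle T81, WT BPA T75, KO BPA T117 and KO stigmasterol T15, where 3 reads would be 0.0799, 0.0715, 0.0738 and 0.0662 CPM. Animals T98, T10 and T66 were thus the 3 highest for both Ldhc and Adam2. The averaged genotype difference of Adam2 was 0.37 ± 0.76 (SE, log2; edgeR adjusted p = 0.794), and in both stigmasterol groups 1 animal held most of the summed level.

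Crem (ENSMUSG00000063889, chromosome 18, 3266048 to 3337748, minus strand) overlapped between the genotypes. Its level was 11.9 to 17.4 CPM in WT libraries (median 13.6) and 11.6 to 15.4 CPM in KO libraries (median 13.3), on 470 to 803 reads each. The 4 WT BPA animals, at 11.92 to 13.31 CPM, lay below the 4 WT vehicle animals, at 13.45 to 15.01 CPM, as 4.4% of all tested genes did, and the difference was not called (edgeR adjusted p = 0.352). The averaged genotype difference was -0.02 ± 0.0675 (SE, log2; edgeR adjusted p = 0.878). The annotation lists 32 coding transcripts of Crem with 21 different start sites, and a count per gene does not tell the activator form from the repressor forms.

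Pgk2 (ENSMUSG00000031233, chromosome 17, 40207018 to 40208609, minus strand) is a gene of 1 exon and had 0 to 10 reads per library, too few to be tested. It had 3 reads or fewer in 12 of the 21 libraries, with 0 reads in KO vehicle T1, KO BPA T83 and KO BPA T117, where the floor was 0.0602, 0.067 and 0.0738 CPM. The highest were WT vehicle T79 (0.179 CPM), KO stigmasterol T93 (0.171) and WT BPA T60 (0.156). KO vehicle animals had 0, 0.0161 and 0.0254 CPM and KO stigmasterol animals 0.0908, 0.11 and 0.171 CPM, and at this depth these values are a few reads apart.

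Of the 3 tested genes not chosen from results (Ldhc, Adam2 and Crem), 0 passed an adjusted p of 0.05 between genotypes in vehicle, BPA or stigmasterol or averaged over treatments, and 0 had an unadjusted p under 0.05. DESeq2 and limma-voom also called 0 there. The share of all tested genes called by edgeR was 2.92% in vehicle, 0.859% in BPA, 7.21% in stigmasterol and 13.9% averaged, and 0 of 3 is near that background. Neither BPA nor stigmasterol gave a call among them within either genotype with edgeR or limma-voom, and 0 had an unadjusted p under 0.05 in edgeR. DESeq2 gave no call either, but it returned no adjusted p for Ldhc and Adam2 under either treatment in WT or for Adam2 under BPA in KO animals. The lowest unadjusted p of these 12 was 0.0927, for Crem under BPA in WT animals (-0.19 ± 0.108, log2; edgeR adjusted p = 0.352). How many genes of the whole table were called between treatments depended on the tool. The share called by edgeR was 0% for BPA and 0.00494% for stigmasterol in WT animals, where 3798 and 1672 genes had an unadjusted p under 0.05. In KO animals it was 0.0148% for BPA and 0% for stigmasterol, where 873 and 779 genes had an unadjusted p under 0.05. DESeq2 called 1040 genes for BPA and 84 for stigmasterol in WT animals, and 12 and 1 in KO animals. With the meiotic prophase score as a covariate, edgeR called 1234 genes for BPA in WT animals. The interaction of treatment with genotype called 0 of the 3 genes in edgeR, against 0.0148% of all genes for BPA (3 genes) and 0.00987% for stigmasterol (2 genes). DESeq2 called 8 and 136 genes for these interactions, with no adjusted p for Ldhc and Adam2 in the second.

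**Figure D3:**
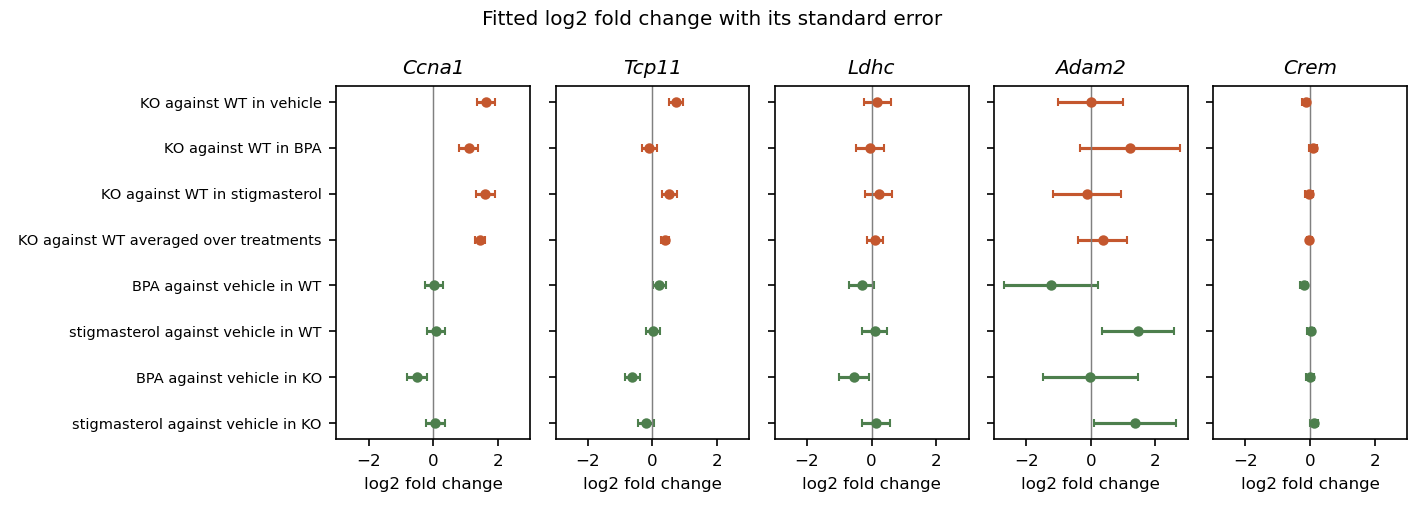
Fitted log2 fold change (horizontal axis) with its standard error (bars) for the 5 genes with enough reads, in 4 comparisons of genotype (orange) and 4 of treatment (green). Ccna1 lies between 1.1 and 1.63 in the genotype comparisons, and the errors of Adam2, up to 1.55, are the widest shown.

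Since animals of 1 age can be at different points of the first wave, each gene was set against a meiotic prophase score. The score is the mean, over the 29 early prophase genes (among them Sycp3 of the synaptonemal complex and the recombinase Dmc1), of log2 CPM minus the gene's mean over libraries, and none of the 6 genes is in it. It ran from -1.13 in WT vehicle animal T81 to 1.04 in WT stigmasterol animal T98. The ranges of the genotypes overlapped, from -1.13 to 1.04 in WT and from -0.77 to 0.89 in KO animals. The gene and the score come from the same library and share its scaling. In the family of 6 genes, p-values are 2-sided from 100000 permutations and adjusted over the 6.

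Ldhc followed the score closely, with Pearson's r = 0.872 and Spearman's rho = 0.894 over 21 animals (adjusted permutation p = 6e-05 for both; the unadjusted p of 1e-05 is the smallest these permutations can give). Without T81 and T98, the libraries farthest from the median score, r was 0.846. It was 0.867 for deviations from group means, 0.903 within WT and 0.831 within KO animals, and 0.837 in the 12 libraries without Cdh16.

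Adam2 also followed it, with r = 0.71 (adjusted permutation p = 0.00075) and rho = 0.728 (0.00108). Without T81 and T98 r was 0.609 (adjusted permutation p = 0.0164), and without the Cdh16 libraries it was 0.629 (0.0654), where rho was 0.734 (0.0258). Within WT animals r was 0.85 (adjusted permutation p = 0.00102), and within KO animals it was 0.496 and did not pass (0.259). Adam2 had 3 reads or fewer, at or below the floor of detection, in 11 of the 21 libraries, so its relation leans on the libraries above the floor. As a description, Ldhc and Adam2 correlated at r = 0.806 over the 21 libraries and at 0.851 after removal of group means.

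Crem had r = 0.479 (adjusted permutation p = 0.0423) but rho = 0.401 (0.11), so that over all animals r passed and rho did not. For deviations from group means r was 0.545 (adjusted permutation p = 0.0202) and rho 0.513 (0.0367). Those permutations shuffled all deviations freely, although removing group means ties the deviations within a group to each other. These p-values can therefore be too small, and neither is read as a pass. Without T81 and T98 the r of Crem was 0.549 (adjusted permutation p = 0.0321) and its rho 0.493 (0.0682). Its log2 level ranged over less than that of any other of the 6 genes. Pgk2 had r = -0.205 (adjusted permutation p = 0.371) and rho = -0.233 (0.31), on at most 10 reads a library.

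Ccna1 formed separate clusters by genotype, so no pooled value is given. Within the 9 KO animals its log2 level was higher at higher scores, with r = 0.901 and rho = 0.917, and within the 12 WT animals r was -0.112 and rho -0.266. The coefficient of variation was 20.3% in WT, on 21 to 45 reads a library, and 34.1% in KO, on 49 to 164 reads. Counting error can therefore make up much of the WT spread, and 6 of the 9 KO libraries had Cdh16 at 10 CPM or above. The KO animals with the lowest scores, T117 and T83, had the lowest Ccna1 of their genotype, 1.21 and 1.43 CPM, and the WT animals with the highest scores, T98 and T66, had 0.779 and 0.702 CPM. Whether the relation differs between genotypes was not tested. With the score as a covariate, the averaged genotype difference of Ccna1 was 1.36 ± 0.176. Tcp11 had r = 0.546 over all animals, 0.446 without T81 and T98, and 0.36 without the Cdh16 libraries, given as a description.

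**Figure D4:**
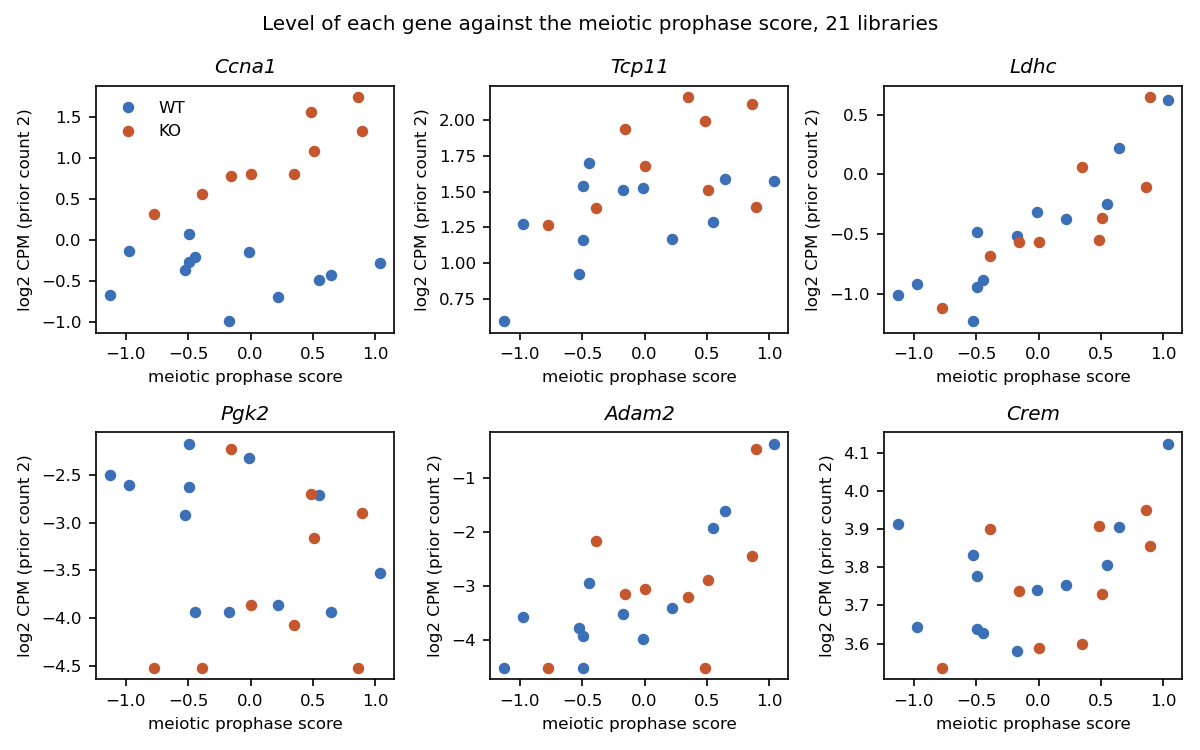
Level of each gene (log2 CPM with a prior count of 2, vertical axis) against the meiotic prophase score (horizontal axis, mean centred log2 CPM) in 21 libraries (blue WT, orange KO). Ldhc follows the score in both genotypes (r = 0.903 within WT and 0.831 within KO). Ccna1 has r = 0.901 within KO and -0.112 within WT, where libraries held only 21 to 45 of its reads, and the difference was not tested.

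Promoters are shown for Ldhc, which followed the score, for Ccna1, which separated the genotypes, and for Pgk2, which was barely detected. The windows run from 250 bases before to 50 bases after the start site in RefSeq (build GRCm38.p6), and 4 of the 6 genes had an entry. They were searched on both strands for the CRE core TGACG, the site type bound by CREB and CREM proteins, for the full CRE TGACGTCA, and for the MYB letters CAACNG or TAACNG, the site type bound by MYBL1 (A-MYB), a known activator of meiotic genes. Capitals mark every match, and neighbouring matches can overlap.
Ldhc (chr7:46861013-46861312, plus strand): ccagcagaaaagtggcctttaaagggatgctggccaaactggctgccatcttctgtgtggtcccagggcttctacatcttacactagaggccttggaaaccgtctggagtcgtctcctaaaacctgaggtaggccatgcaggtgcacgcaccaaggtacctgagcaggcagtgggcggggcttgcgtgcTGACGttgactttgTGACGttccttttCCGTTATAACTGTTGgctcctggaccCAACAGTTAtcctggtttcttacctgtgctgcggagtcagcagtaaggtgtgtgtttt
Ccna1 (chr3:55055006-55055305, minus strand): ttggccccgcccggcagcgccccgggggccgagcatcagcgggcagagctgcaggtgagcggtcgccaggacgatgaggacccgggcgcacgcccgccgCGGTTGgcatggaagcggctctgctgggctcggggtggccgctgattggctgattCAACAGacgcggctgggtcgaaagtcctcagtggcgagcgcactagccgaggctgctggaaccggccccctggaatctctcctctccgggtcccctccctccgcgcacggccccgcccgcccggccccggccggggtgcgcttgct
Pgk2 (chr17:40208560-40208859, minus strand): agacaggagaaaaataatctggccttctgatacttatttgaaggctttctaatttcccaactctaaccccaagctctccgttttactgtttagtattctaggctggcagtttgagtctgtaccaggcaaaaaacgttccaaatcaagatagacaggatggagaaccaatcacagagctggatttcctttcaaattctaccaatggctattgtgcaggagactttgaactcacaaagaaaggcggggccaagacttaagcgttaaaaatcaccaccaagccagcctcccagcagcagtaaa
The Ldhc window held 2 matches of TGACG, which begin 61 and 47 bases before the start, and 5 MYB matches within the 34 bases before it, some of which overlap. RefSeq lists a second Ldhc window, at chr7:46861237-46861536, which overlaps the first and held 3 MYB matches and no TGACG. Of 32851 mouse promoter windows of the same length, 20.8% held TGACG and 5.01% at least 2 such matches. MYB letters of either kind were in 49.7% of windows, and 0.28% had at least 5 matches. The Ccna1 window held 2 matches of CAACNG, the letters found in 35% of windows, and no TGACG. The Pgk2 window held no match of any of these letters. Of the 3 windows listed for Tcp11, 1 held 1 TGACG and 1 TAACNG and the others held none. No window of these genes held the full CRE, which was in 1.79% of all windows. A match is a run of letters and says nothing of binding, and Mybl1 itself lay between 25 and 60.2 CPM in WT and between 21.1 and 62.8 CPM in KO libraries.

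The genes whose log2 level was most like each of the 6 over the 21 libraries were taken from 13872 tested genes of at least 1 CPM. For Ldhc they were Fam216a (Pearson's r = 0.929), Brdt, a bromodomain protein of meiotic and later germ cells (0.927), and Gml (0.925). For Adam2 they were Stard6 (0.843), Mroh8 (0.833) and Xist (0.825). For Ccna1 they were Igsf23 (0.877), Kifc5b (0.875) and Tmod4 (0.874), and for Tcp11 Nefh (0.852), Hip1r (0.852) and Ncan (0.844). Crem was most like Synj2bp (0.83), Pcmt1 (0.83) and Rnf2 (0.824). The values for Pgk2 were lower, with Nars at 0.718, Bcl11b at 0.706 and Fam189a1 at 0.677. These values are descriptions over libraries that share depth and scaling.

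Other genes of the same stages were mixed in direction between the genotypes. The gene lists used here and below were chosen with earlier results of these data known, which limits what their p-values and counts show. Of 32 pachytene genes 28 were tested, and averaged over treatments 2 rose and 3 fell in KO testes, with a median log2 difference of 0.18 beside 0.01 over all tested genes. These 5 of 28 stand beside 13.9% of all tested genes called in this contrast (6.85% higher and 7.07% lower in KO), so the count is near the background. Clgn, the testis chaperone that fertilin needs, rose from 9.84 ± 2.56 to 15.6 ± 3.58 CPM (0.65 ± 0.161, log2; edgeR adjusted p = 0.0115). Calr3, a related chaperone, rose by 0.3 ± 0.0891 (adjusted p = 0.0321). Piwil1, the piRNA-binding protein MIWI, had 7.05 ± 0.955 CPM in WT (SD, n = 12) and fell in KO to 4.74 ± 0.564 CPM (SD, n = 9), with -0.57 ± 0.0853 as the log2 difference (edgeR adjusted p = 0.000192). Mns1, a protein of the sperm tail, fell by 0.3 ± 0.0545 (adjusted p = 0.00122), and it shares 2842 of its 5363 exonic bases with Tex9 on the opposite strand. Meig1, a protein of spermiogenesis named here after its values were seen, to complete the count, fell as well (-0.32 ± 0.099, edgeR adjusted p = 0.0386). The Calr3 call was lost when T81, T60, T61, T78, T119, T90, T25 or T10 was left out (edgeR adjusted p up to 0.0836). The Meig1 call held only in the fits without T79, T75, T74, T78, T1 or T25, with an adjusted p of up to 0.0705 in the others, and it was also lost with limma-voom (0.0584), with no filter (0.0558) and with the epididymal score as a covariate (0.117). Calr3 was lost with no filter too (0.0623). Within single treatments Piwil1 fell in BPA (-0.79 ± 0.149, edgeR adjusted p = 0.0103) and in stigmasterol (-0.59 ± 0.148, 0.0199). Mns1 fell in stigmasterol (-0.54 ± 0.095, edgeR adjusted p = 0.00239). Leaving out 1 animal kept these Piwil1 calls in 5 and 4 of 7 fits and the Mns1 call in all 7.

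Of 32 spermatid genes 17 had enough reads to be tested, and 3 rose and 0 fell in KO testes averaged over treatments. Over all tested genes 13.9% were called in either direction and 6.85% were higher in KO. Whether 3 of 17 differs from these shares was not tested. Gapdhs, the sperm form of glyceraldehyde-3-phosphate dehydrogenase, rose from 2.07 ± 0.21 to 3.34 ± 0.309 CPM (0.69 ± 0.0783, log2; edgeR adjusted p = 8.7e-06). All 9 KO libraries, from 2.79 to 3.7 CPM, lay above all 12 WT libraries, from 1.74 to 2.43 CPM, as in 0.434% of all tested genes. Gapdhs passed in vehicle (adjusted p = 0.00701), BPA (0.00728) and stigmasterol (0.0106) alone. The vehicle call was lost without KO vehicle T1 (adjusted p = 0.0558) and the stigmasterol call without KO stigmasterol T10 (0.0566). When only the groups compared were fitted, Gapdhs passed in none of the 3 treatments (edgeR adjusted p = 0.141 in vehicle, 0.0674 in BPA and 0.103 in stigmasterol), at log2 differences of 0.7, 0.74 and 0.62. Tmem147os on the opposite strand shares 162 of its 1610 exonic bases. The kinase genes Tssk1 and Tssk2 of spermatids rose by 0.58 ± 0.178 (edgeR adjusted p = 0.0377) and 0.56 ± 0.18 (0.043). The Tssk1 call held only in the fits without T66, T79, T75, T61, T74, T98, T110, T83 or T93, with an edgeR adjusted p of up to 0.0837 in the others. The Tssk2 call held only in those without T71, T79, T75, T74, T98, T1, T83 or T15, with up to 0.109 in the others. With no filter both were lost (0.0548 for Tssk1 and 0.0664 for Tssk2), as they were with the meiotic score as a covariate (0.0516 and 0.0551), and Tssk2 was lost with limma-voom (0.0576) and with the epididymal score (0.102). In vehicle alone Tssk2 rose by 1.22 ± 0.316 (edgeR adjusted p = 0.043), a call kept in 1 of 7 fits without 1 animal.

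Among 20 relatives and partners of the 6 genes 18 were tested, and 2 rose (Clgn and Calr3) and 2 fell averaged over treatments, beside 13.9% of all genes called. Pgk1 fell from 33.3 ± 3.16 to 29.6 ± 1.48 CPM (-0.17 ± 0.0419, log2; edgeR adjusted p = 0.0121), and Creb1 fell from 117.6 ± 6.28 to 107 ± 4.16 CPM (-0.13 ± 0.0353; 0.0173). In vehicle alone Pgk1 was at -0.27 ± 0.0727 (edgeR adjusted p = 0.049), a call kept in 1 of 7 fits without 1 animal. Ccna2, Ldha, Ldhb and Fhl5 were tested and not called, and Adam3 had too few reads to be tested. Of the 29 early prophase genes 0 were called with edgeR, DESeq2 or limma-voom and 3 had an unadjusted p under 0.05 in edgeR. Their averaged differences were positive in 27 of 29, with a median of 0.35, beside 53.3% positive over all tested genes. These are the genes of the meiotic prophase score, measured in the same animals, so the 29 are not independent observations. The score itself overlapped between the genotypes.

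Marker levels of other cells also differed between the genotypes. Of 13 Sertoli cell genes 7 fell and 0 rose averaged over treatments, beside 7.07% of all genes lower in KO, and their sum lay between 4825 and 8070 CPM in WT animals and between 4398 and 5462 CPM in KO animals. Of 11 epididymal genes 10 were tested and 8 rose (2 with limma-voom), beside 6.85% of all genes higher in KO, and KO libraries summed to 141 to 752 CPM against 89.2 to 213 CPM for WT. With the epididymal score as a covariate, the averaged genotype difference was 1.48 ± 0.201 (SE, log2) for Ccna1 and 0.54 ± 0.15 for Tcp11. Beyond fits with that score or without the Cdh16 libraries, the part of these cells in the differences above was not tested. Without the Cdh16 libraries, where each KO group has 1 animal, none of the calls named from the pachytene, spermatid and partner lists remained. Calls of Sertoli cell and epididymal genes were not followed in that fit. Gapdhs then stood at 0.69 (adjusted p = 0.0503), Mns1 at -0.36 (0.0572), Piwil1 at -0.48 (0.161) and Clgn at 0.7 (0.202).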

How the data were processed

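Poly-A RNA libraries of whole testes from 21 individual mice were made with a TruSeq kit that does not mark strand, per the labels' protocols. Tools listed in the submitters' processing notes are TopHat2 2.0.10 with Bowtie and Bowtie2 2.1.0, and CASAVA 1.8.2, with mm10 as the genome build. The counter, the annotation release and the handling of reads with several matches are not stated there. The deposited table, per the file headers, holds raw read counts per gene, which entered every test here, and the authors' normalized signal per kb, used to compare levels between genes. It also holds the authors' log2 fold changes between treatments, with the p-value and adjusted p-value of each, as deposited to 2 decimals.

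The tests used edgeR 4.0.16 under R 4.3.3 on the counts (TMM normalization, 1 mean per group, quasi-likelihood test, Benjamini-Hochberg adjustment over the 20254 tested genes in each of 10 contrasts, threshold 0.05). Levels are CPM after TMM. The alternatives used DESeq2 1.42.0, limma-voom (limma 3.58.1), RLE normalization, no filter, fits of the compared groups alone, the meiotic or an epididymal score as covariate, the 12 libraries with Cdh16 under 10 CPM, and each animal left out. On simulated counts of all 20254 genes for the averaged contrast, 94 of 100 genes changed by 1 on the log2 scale were recovered. The changed genes were drawn only from genes with a higher mean level than that of Adam2, so this recovery does not apply to Adam2. Groups came from the labels, whose animal numbers are not shared between groups. Of 31 early prophase genes listed, 29 matched the table. Pgk2 failed the filter on low counts. The genes described and the lists were chosen with earlier results of these data known. Genes were named by rule: the 6, the 3 most correlated with each, relatives, and at most 4 called genes per list and contrast with the smallest p.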

Additional observations from a re-analysis of the deposited data

How the results depend on the processing

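The count of Ldhc, Adam2 and Crem past the threshold was 0 wherever an alternative, leaving out each animal included, gave these genes an adjusted p. DESeq2 gave none for Adam2 in 4 and Ldhc in 3 of 10 contrasts, and Adam2 failed the filter in 7 of 9 fits of the compared groups alone and without T66 or T98. The averaged difference of Ccna1 ranged from 1.31 to 1.52 over the 21 fits without 1 animal and from 1.36 to 1.58 over the other alternatives. Without KO vehicle animal T1, the Ccna1 difference of stigmasterol against vehicle in KO moved from 0.07 to 0.45 and that of BPA against vehicle in KO from -0.51 to -0.11. Without the Cdh16 libraries these Ccna1 differences were 0.75 for stigmasterol and 0.28 for BPA, the latter with its sign changed. The Ccna1 interactions with genotype changed sign there too, from -0.53 to 0.53 for BPA and from -0.02 to 0.76 for stigmasterol. BPA against vehicle in WT went from 0.03 to -0.25. Without the Cdh16 libraries, where each KO group has 1 animal, taken to vary like the other groups, r with the meiotic score was 0.629 for Adam2 and 0.609 for Crem (adjusted permutation p = 0.0654 for both), and rho was 0.734 (0.0258) and 0.49 (0.217). No paired analysis was possible because the groups share no animal numbers.

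Counts over all genes moved by over 1.5 times. Between genotypes, within vehicle, BPA and stigmasterol in turn, edgeR called 592, 174 and 1461 genes, DESeq2 1413, 302 and 2207, the fit with the meiotic score 904, 320 and 2957, the compared groups alone 185, 110 and 327, and the libraries without Cdh16 56, 31 and 85. With the epididymal score it was 677 in stigmasterol and 1871 averaged over treatments, against 2820.

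Uncalled log2 differences of Ldhc, Adam2 and Crem also changed sign, and the cause was not tested. Without the Cdh16 libraries Ldhc was at 0.33 (KO against WT in BPA), -0.32 (in stigmasterol), -0.08 and -0.64 (stigmasterol against vehicle in WT and in KO), 0.09 and -0.56 (interaction of BPA and of stigmasterol), Adam2 at -2.35 (genotype, averaged), 0.48 and -4.64 (BPA and stigmasterol against vehicle in KO), and Crem at 0.04 (genotype in stigmasterol). With the meiotic score as covariate Ldhc was at -0.22 (genotype in vehicle), -0.11 (averaged), -0.16 (stigmasterol in WT) and 0.09 (BPA interaction), Adam2 at -0.07 (averaged), 1.33 (BPA in KO) and 0.34 (stigmasterol interaction), and Crem at -0.01 (stigmasterol in WT). With the epididymal score Adam2 was at -0.08 (averaged) and 0.09 (BPA in KO). With limma-voom Ldhc was at -0.02 and -0.01 (stigmasterol in WT and in KO) and Adam2 at 0.82 (genotype in vehicle), -0.25 (stigmasterol in KO) and -0.05 (BPA interaction), and with DESeq2 Adam2 was at 0.05 (genotype in vehicle).

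Leaving out 1 animal, Ldhc ranged from -0.01 to 0.45 (genotype in vehicle), -0.26 to 0.13 (BPA), -0.32 to 0.71 (stigmasterol), -0.07 to 0.28 (averaged), -0.4 to 0.37 and -0.4 to 0.35 (stigmasterol in WT and in KO) and -0.49 to 0.53 (stigmasterol interaction). Adam2 ranged from -0.42 to 0.22 (genotype in vehicle), -2.71 to 0.45 (stigmasterol), -0.5 to 0.62 (averaged), -0.95 to 0.53 and -1.24 to 1.91 (BPA and stigmasterol in KO) and -2.7 to 0.46 (stigmasterol interaction). Crem ranged from -0.01 to 0.17 (genotype in BPA), -0.09 to 0.07 (stigmasterol), -0.07 to 0.01 (averaged), -0.08 to 0.09 (stigmasterol in WT) and -0.09 to 0.14 (BPA in KO). Of the 3 genes most like each gene, Spearman's rho in place of Pearson's r kept 2 for Tcp11 and 1 for each of the others. Depth limits Pgk2 and Adam2 most, with 0 to 10 and 0 to 34 reads a library.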

Other observations

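Within 2 Mb on either side of each gene, the genes called between genotypes averaged over treatments numbered 3 of 24 tested for Ccna1, 14 of 91 for Tcp11, 8 of 110 for Ldhc, 0 of 7 for Pgk2, 7 of 37 for Adam2 and 5 of 13 for Crem, beside 13.9% of all tested genes. All 7 called neighbours of Adam2 were lower in KO testes.

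The authors' deposited table gives for Pgk2 a log2 difference of 3.17 between stigmasterol and vehicle in KO animals, with p = 0.02 and an adjusted p of 1. For Tcp11 the authors' deposited table gives -0.61 between BPA and vehicle in KO animals, given as a description because the gene was chosen from results on these animals. For Adam2 the authors' deposited table gives 1.52 between stigmasterol and vehicle in WT animals and 1.41 in KO animals, with p of 0.13 and 0.22.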
